A study of Homo sapiens with 11 samples.

Results

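CTCF summits of WT cells were compared with those of ORC2 rescue cells, to see how far the CTCF map of cells with ORC2 put back matched the map of the cells the series calls wild-type. The comparison takes in 39854 of the 70966 CTCF summits of the series, namely all 19044 summits of the WT list and all 20810 of the rescue list. A summit, the base with the highest signal in a peak, was called matched when a summit of the other list lay within 500 bp, and otherwise WT-only or rescue-only. Both genotypes are HCT116 p53-/- cells, from a line of human colorectal cancer that lacks p53. The rescue cells descend from a single ORC2 deletion clone made with CRISPR/Cas9, received ORC2 with its UTRs on the plasmid pLHCX and were again selected as clones, so that WT and rescue differ by clonal history as well as by the source of ORC2, which cannot be told apart here. Each list stands for 2 libraries made with a CTCF antibody by CUT&RUN, in which a nuclease bound to an antibody on chromatin releases the DNA around the protein. IgG, an antibody without a target in the cell, served as the background, with 2 WT libraries and 1 rescue library. The ORC2 deletion cells, with 31112 CTCF summits, are given only beside a few results.

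CTCF is a DNA-binding protein with a row of zinc fingers that reads a long, GC-rich motif. On chromatin it stops the cohesin ring that extrudes loops, so that pairs of CTCF sites often mark loop ends and domain borders, and many CTCF sites also lie at promoters. ORC2 is a subunit of the origin recognition complex, which loads the replicative helicase onto DNA before replication. The lists record binding only, so the cell type could not be checked against expressed markers.

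The value of a summit is its q from the peak caller, written as −log10, which orders summits within a list but was not scaled between lists. It ran from 1.308 to 728.2 with a median of 6.18 in WT, and from 1.304 to 1585 with a median of 6.58 in rescue. Summits were therefore compared by rank, with rank 1 the strongest, or by rank share, the rank as a percentage of the list length. The genotypes have 1 list each and the depth of the libraries is unknown, so no difference below has a replicate check. Summits are not replicates, and the intervals given (95%; Wilson for a share, Newcombe for a difference of shares, exact for a ratio of counts) cover counting error only. The rescue list was 1.09 times as long as the WT list, and the length of a list bears on both matched shares. Of the WT CTCF summits 14, and of the rescue summits 18, lay within 500 bp of an IgG summit of the same cells.

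Promoter sequences show what the 3 classes look like at the level of bases. In the 300 bases from 250 before to 50 after each RefSeq start site, the core of the CTCF motif was searched on both strands as CC, any 3 bases, AG, any 2 bases and GGC. The core was held by 35.8% of the 818 windows with a matched summit (32.6 to 39.2), 22.2% of the 379 with a WT-only summit (18.3 to 26.6) and 20.4% of the 225 with a rescue-only summit (15.7 to 26.2). All 34789 promoter windows held it at 10.6%, and windows without a summit at 9.75%. Each sequence below is the match in the promoter of a gene whose summit is among the strongest of its class with a match, read 5′ to 3′ on the strand of the match (RefSeq, GRCh38.p14), with the core in capitals.

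The first set had a summit in both lists.
MZT2A, chr2:131492410-131492431, minus strand: cgcatCCGCTAGGGGGCgcggc
TNK2, chr3:195894775-195894796, minus strand: cccgaCCGGCAGAGGGCagtag
DTWD2, chr5:118988216-118988237, plus strand: actccCCGGCAGGGGGCgccgc
GPR160, chr3:170037907-170037928, plus strand: tcccgCCGGCAGGCGGCgccct
Another set had a WT summit alone.
ZNF354A, chr5:178730829-178730850, plus strand: acatgCCACAAGAGGGCccctg
FHIP2A, chr10:114821732-114821753, minus strand: cgcggCCTGCAGGGGGCgccgc
CEP152, chr15:48811150-48811171, minus strand: ctctgCCCTGAGCTGGCacggc
TMEM106C, chr12:47963468-47963489, minus strand: cggttCCGGTAGAGGGCggcag
The last set had a rescue summit alone.
TMEM219, chr16:29962066-29962087, minus strand: cggggCCGCGAGGGGGCggggt
FBXO6, chr1:11664181-11664202, minus strand: ctcccCCTCCAGGCGGCgggcg
DIRC3, chr2:217756715-217756736, minus strand: cccgcCCACCAGGGGGCagtct

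The matched promoters ranked high in both lists. The summit at TNK2, a non-receptor tyrosine kinase, had a value of 43.9 in WT (rank 132) and 51.1 in rescue (rank 145), and that at DTWD2 had 41.4 (rank 147) and 53.9 (rank 118). At MZT2A, a partner of the gamma-tubulin ring complex, the values were 45.7 (rank 120) and 23.6 (rank 840). The unmatched promoters stood lower. ZNF354A had a WT value of 12.6 (rank 2728), and CEP152, a centriole duplication protein, had 8.90 (rank 5571). TMEM219 had a rescue value of 11.7 (rank 4144), and FBXO6, a ubiquitin ligase subunit that binds glycoproteins, had 9.07 (rank 6675). At the matched promoters the core lay 192 bp from the WT summit at MZT2A, 146 bp at TNK2, 179 bp at DTWD2 and 167 bp at GPR160. At the WT-only promoters it lay 11 bp from the summit at CEP152, 14 bp at TMEM106C, 31 bp at ZNF354A and 81 bp at FHIP2A. At the rescue-only promoters it lay 62 bp away at FBXO6, 89 bp at DIRC3 and 241 bp at TMEM219. A match of letters is a description and not a measured binding site.

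The windows of the unmatched classes held the core less often than those of the matched class, by 13.7 points for WT-only (difference -13.7, interval -18.8 to -8.17) and by 15.4 points for rescue-only (-15.4, -21.2 to -8.79). They held it more often than windows without a summit, by 12.4 points (8.51 to 16.9) and 10.7 points (5.93 to 16.5). Between rescue-only and WT-only windows the difference was -1.72 points, with an interval from -8.23 to 5.22. Matched summits were stronger, so windows were also compared with summits from below the median rank of each list alone. There the core was in 31.6% of 228 matched and 21.1% of 322 WT-only windows, and in 33.6% of 247 matched and 19.7% of 188 rescue-only windows. The median GC content was close in the 3 classes, at 63.7% for matched, 64.0% for WT-only and 63.0% for rescue-only windows, against 58.3% without a summit.

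Most summits had a partner. In WT 14521 of 19044 summits had a rescue summit within 500 bp, 76.2% (75.6 to 76.8), which left 4523 WT-only summits (23.8%). In rescue 14529 of 20810 had a WT summit, 69.8% (69.2 to 70.4), which left 6281 rescue-only summits (30.2%). Few unmatched summits were close to the limit. The nearest rescue summit lay more than 500 and up to 1000 bp away for 141 WT-only summits (3.12%), and the nearest WT summit for 159 rescue-only summits (2.53%). Just inside the limit, at more than 400 bp, stood 77 WT and 81 rescue summits with median rank shares of 67.1 and 66.4. Just outside it, at up to 600 bp, stood 46 and 42 with 72.3 and 69.2. For 987 WT-only summits (21.8%) and 1182 rescue-only summits (18.8%) no summit of the other list was found within 100 kb.

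The match depended on strength in both lists. With each list divided by rank into 10 classes of equal size, 98.8% of the strongest WT class and 98.0% of the strongest rescue class were matched. Class 5 was matched at 83.9% in WT and 75.8% in rescue, and the weakest class at 32.7% and 31.2%. Of WT-only summits 82.3% (81.2 to 83.4) lay below the median rank of the WT list, against 39.9% of matched ones. Of rescue-only summits 79.0% (77.9 to 80.0) lay below the median of the rescue list, against 37.5%. The median value was 3.70 for WT-only and 7.17 for matched WT summits, and 4.22 for rescue-only and 8.02 for matched rescue summits.

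**Figure D1:**
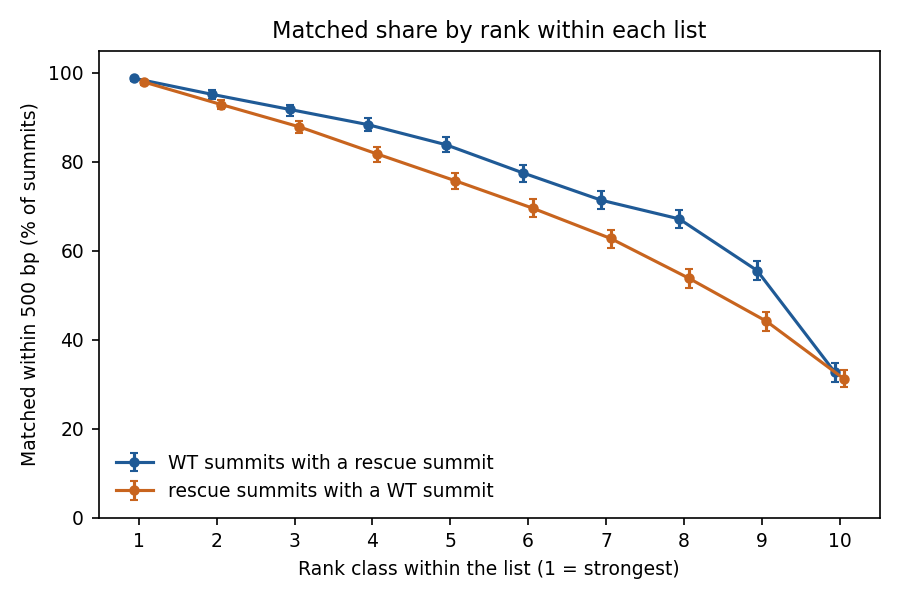
Share of summits matched within 500 bp (y axis, %) by rank class within the list (x axis, 1 = strongest), with 95% Wilson intervals, for WT (blue) and rescue (orange). The share falls from 98.8% to 32.7% in WT and from 98.0% to 31.2% in rescue.

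Unmatched summits were also more isolated within their own list. No other WT summit lay within 100 kb of 22.6% of WT-only summits, against 13.1% of matched ones. For rescue the shares were 16.3% of rescue-only and 11.1% of matched summits. Another summit of the same list lay within 10 kb of 20.5% of WT-only and 26.1% of matched WT summits, and of 24.8% of rescue-only and 28.6% of matched rescue summits.

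Taken one to one, 14509 pairs of nearest summits were formed. Their summits lay a median of 62.0 bp apart (quartiles 26 and 126), 67.1% within 100 bp, and 121 pairs at the same base. The distance grew as summits weakened, from a median of 39.0 bp in the strongest WT class to 94.0 bp in the weakest. Ranks within pairs were related but loosely, with a Spearman rho of 0.58 across 14509 pairs, which share the 2 lists and are not independent. Of the 1882 pairs in the strongest WT class, 1180 (62.7%) were in the strongest rescue class. Over all pairs 21.6% were in the same class and 18.2% were more than 3 classes apart. Accordingly, 99.2% of the 1000 strongest WT summits had a rescue summit somewhere in the list, while 60.8% had one among the 1000 strongest of rescue.

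**Figure D2:**
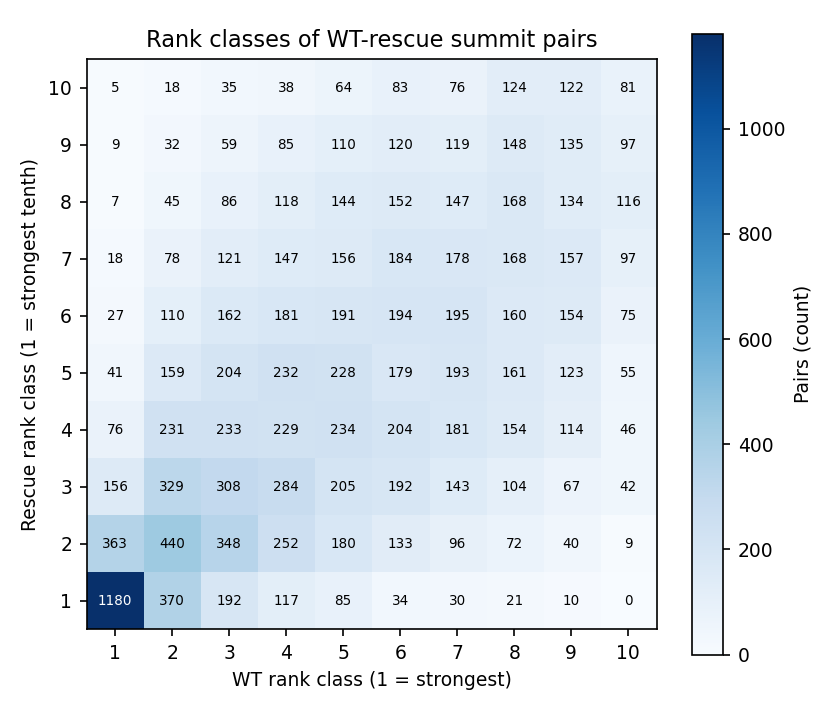
Number of WT-rescue pairs in each combination of WT rank class (x axis) and rescue rank class (y axis), with class 1 the strongest of its list and darker blue for more pairs. The densest cell is the strongest class of both lists, with 1180 pairs.

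The 5 pairs of highest mean rank were of different kinds. The first was on chromosome 3 at 93470561, with no protein-coding gene within 50 kb, and was rank 1 in both lists, with values of 728 in WT and 1585 in rescue. Like the pairs on chromosome 17 at 26603915 (177 and 337) and chromosome 16 at 46390687 (118 and 215), it lay within 21 bp of an IgG summit in both genotypes, so the signal at these 3 was there without a CTCF antibody. The other pairs were inside PDZD7, a scaffold protein of hair cells of the inner ear (chromosome 10, 101013210; 186 and 211), and FGD2, an activator of CDC42 (chromosome 6, 37018531; 132 and 146). Neither had an IgG summit within 500 bp. Further pairs followed at GABRR3, a GABA receptor subunit (148 and 130; 4317 bp outside), USP10, a ubiquitin protease (128 and 133), CACNB4, a calcium channel subunit (129 and 123), and CEACAM5, the carcinoembryonic antigen (91.1 and 115; 1701 bp outside). These 4 were named after their values were seen.

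Some matched sites stood at opposite ends of the lists. In 392 pairs the rescue summit was weaker by more than 50 points of rank share, and in 509 pairs the WT summit was. The largest shift down in rescue was inside MYLK4, a myosin light chain kinase (chromosome 6, 2750302), with a value of 14.9 at rank 1822 in WT and 1.77 at rank 20492 in rescue. TOX2, an HMG-box transcription factor, had 16 in WT and 2.14 in rescue, and TEAD1, a transcription factor of the Hippo pathway, had 16.7 and 2.53. MFAP5, a protein of extracellular microfibrils, had 13.7 and 2.03, and NUDT8, a nudix hydrolase, had 12.6 and 1.44. TRIM38, a ubiquitin ligase, had 16 and 2.45 with the pair 12160 bp outside the gene. DGKB, a diacylglycerol kinase, had 14.6 and 2.62, and PLCB1, a phospholipase C, had 12.8 and 2.45. A pair on chromosome 8 (16 and 2.23) and one on chromosome 6 at 137314615 (12.1 and 2.18) had no protein-coding gene within 50 kb.

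The opposite shift was largest 48404 bp from FEZ2, where the value was 2.19 at rank 18125 in WT and 15.2 at rank 2441 in rescue. MARCHF10, a ubiquitin ligase, had 1.54 in WT and 13.5 in rescue, and CRYBG1 had 2.68 and 18.1. SLC2A3, the glucose transporter GLUT3, had 1.65 and 12.4 with the pair 2168 bp outside the gene. PAK6, a p21-activated kinase, had 3.18 and 20.9, and CASTOR1, the arginine sensor of mTORC1, had 3.01 and 17.5. TANGO6 had 2.75 and 16.7, and GRAMD2B 2.39 and 14.3 with the pair 5948 bp outside. A pair on chromosome 16 at 66315451, without a protein-coding gene within 50 kb, had 3.25 and 26.7, the strongest rescue value of these pairs. NECTIN2, a cell adhesion protein, had a pair 1169 bp outside the gene with 3.12 and 19.5. These values were picked as the extremes of 14509 pairs and have no replicate check.

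At NECTIN2 the same promoter also held one of the strongest WT-only summits, 543 bp outside the gene (chromosome 19, 44845754), with a value of 18.8 at rank 995. It lay 648 bp from the rescue summit of the pair just described. The strongest WT summit there thus had no rescue summit within 500 bp, although rescue had a summit of 19.5 beside it.

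The strongest WT-only summit was inside CDKAL1, a tRNA-modifying enzyme (chromosome 6, 20550504), at rank 202 with a value of 36.5, and lay 13719 bp from the nearest rescue summit. IRF4, a transcription factor of lymphocytes (27.5), was 239905 bp from one. TAF4B, a subunit of TFIID (26.2), ZNF598, a ubiquitin ligase that senses collided ribosomes (21.6), and MEGF6 (21.4) followed. CELF4, an RNA-binding protein, had 17.6, PENK, the precursor of enkephalins, had 18.6 with the summit 1481 bp outside, and ZNF705G had 16.6. LIPA, the lysosomal acid lipase (19.5), PSMD11, a proteasome subunit (16.9), and VAV1, a signalling protein of blood cells (16.2; 6396 bp outside), were unmatched by a small margin, with rescue summits at 563, 592 and 719 bp. Summits on chromosome 8 (27.1), chromosome 2 at 212777012 (17.2) and chromosome 15 at 94164306 (16.6) had no protein-coding gene within 50 kb.

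The strongest rescue-only summit was on chromosome 16 at 46387933, with no protein-coding gene within 50 kb, at rank 137 with a value of 51.6. It lay 2016 bp from the nearest WT summit and 2753 bp from a rescue IgG summit. The next was inside ORC2 itself (chromosome 2, 200957000; 33.3, rank 358), and a rescue IgG summit lay 584 bp away. EXD1, a protein of the piRNA pathway, had a summit 137 bp outside the gene (28.6, rank 514), and the nearest WT summit lay 45807 bp away. CACNA1C, a calcium channel subunit (25), FSTL4 (21.1) and EIF2D, a translation initiation factor (19.8), held a summit each. The summits named for CCR6, a chemokine receptor (23), SMIM41 (22.3), ZC4H2 (22), CCDC194 (21.4), ZBTB39 (20.1), KCNG1, a potassium channel subunit, and ZFR, an RNA-binding protein (19.8), were 889 to 44983 bp outside them. Summits on chromosome 17 at 23016304 (32.1) and chromosome 1 at 91165658 (28.9) had no protein-coding gene within 50 kb, and the latter had a WT summit at 518 bp.

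ORC2 (chromosome 2, 200908977 to 200963660) had 2 WT and 5 rescue summits within 10 kb. The pair at its upper end was matched 17 bp apart (10.4 in WT, 12.3 in rescue), and so was the pair beyond its lower end (4.31 and 6.01). The rescue-only summits were at 200944929 (4.30), 200957000 (33.3) and 200957858 (18.4). The last one and the one before it lay among the rescue IgG summits at 200956416 (11.1) and 200958139 (9.57), while WT IgG had 0 summits in the gene. At these summits CTCF binding and signal that is present without the CTCF antibody cannot be told apart.

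Of the other genes of the origin recognition complex, ORC6 had 1 matched summit (5.63 and 3.01), and ORC4 had 1 matched summit (7.12 and 8.35) and 1 WT-only summit (3.72). ORC5 had a WT-only summit of 3.23 and ORC1 a rescue-only summit of 1.81, both in the weak part of their list, at ranks 15980 and 20474. The summit of HOXA9, a homeobox gene, was matched 65 bp apart (17.4 and 17), and both summits of MYC were matched, 4 and 7 bp apart. CDH1, encoding E-cadherin, had a matched summit (10.3 and 9.43) and a WT-only summit of 4.25 that missed a rescue summit by a few bases, at 508 bp. CDKN1A, the cell cycle inhibitor p21, had a WT-only summit of 3.26, and CTCF a rescue-only summit of 4.17, 5666 bp outside the gene. ORC3 and H19 had no summit in either list.

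WT-only summits lay at gene starts more often than matched ones, and rescue-only summits less often. Of WT-only summits 723 of 4336 were within 1 kb of a start site, 16.7%, against 1515 of 13793 matched summits, 11%, a difference of 5.69 points (4.49 to 6.94). Of rescue-only summits 581 of 6013 were there, 9.66%, against 1503 of 13799 matched ones, 10.9%, a difference of -1.23 points (-2.13 to -0.304). WT-only exceeded rescue-only summits by 7.01 points (5.68 to 8.36). By distance to either end of a gene, which was the measure planned, WT-only summits stood at 23.4% and matched ones at 18.5% (difference 4.89, 3.52 to 6.29), and rescue-only summits at 16.2% and matched ones at 18.4% (-2.14, -3.24 to -1.02). No start sites on chromosome 8 were used here, so that chromosome is left out of start site shares.

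The WT-only summits gathered on both sides of the start. From 300 bp before to 200 bp after it they numbered between 17.8 and 24.9 per 1000 in each 100 bp, against 8.99 to 17.3 for matched WT summits. The difference from matched summits was 2.46 points in the kilobase upstream (1.52 to 3.45) and 3.23 points in the kilobase downstream (2.42 to 4.10). Rescue-only summits differed by -1.32 points upstream (-2.01 to -0.598) and 0.0926 points downstream (-0.502 to 0.722). Over all summits, those at starts included, inside protein-coding genes lay 51.5% of rescue-only and 46.8% of matched rescue summits (difference 4.75, 3.27 to 6.22), and 48.8% of WT-only and 46.6% of matched WT summits (2.2, 0.530 to 3.86). Outside genes and more than 50 kb from any end lay 4.05% of WT-only against 2.2% of matched summits, and 3.20% of rescue-only against 2.19%.

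The WT difference was also present between summits of like rank in the weaker classes. In WT rank classes 5 to 10, between 14.9% and 18.9% of WT-only summits were within 1 kb of a start, against 9.45% to 10.8% of matched ones. In classes 1 to 4 the intervals of both overlapped. Class 1 stood the other way, with 5.26% of its 19 WT-only summits with a start site distance against 15.2% of matched ones. Averaged over classes with the weight of the WT-only summits, which favours the weak classes, the difference was 6.67 points (5.28 to 8.06). A mean with equal weights, in which classes 1 to 4 would count for more, is not reported for start sites. In classes 2 to 4 the start site shares were 11.4% to 12.7% of WT-only summits, against at most 11.2% of matched ones. For gene ends the mean with equal weights was 3.64 points (1.64 to 5.63), against 5.73 points (4.10 to 7.36) with the weights. The start site difference was 2.22 points (0.817 to 3.70) with values of at least 5 in both lists, and 2.22 points (1.27 to 3.18) with matching at 100 bp. For rescue-only summits, without chromosomes 6 and X the difference was -0.951 points with an interval that reached 0.0182.

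**Figure D3:**
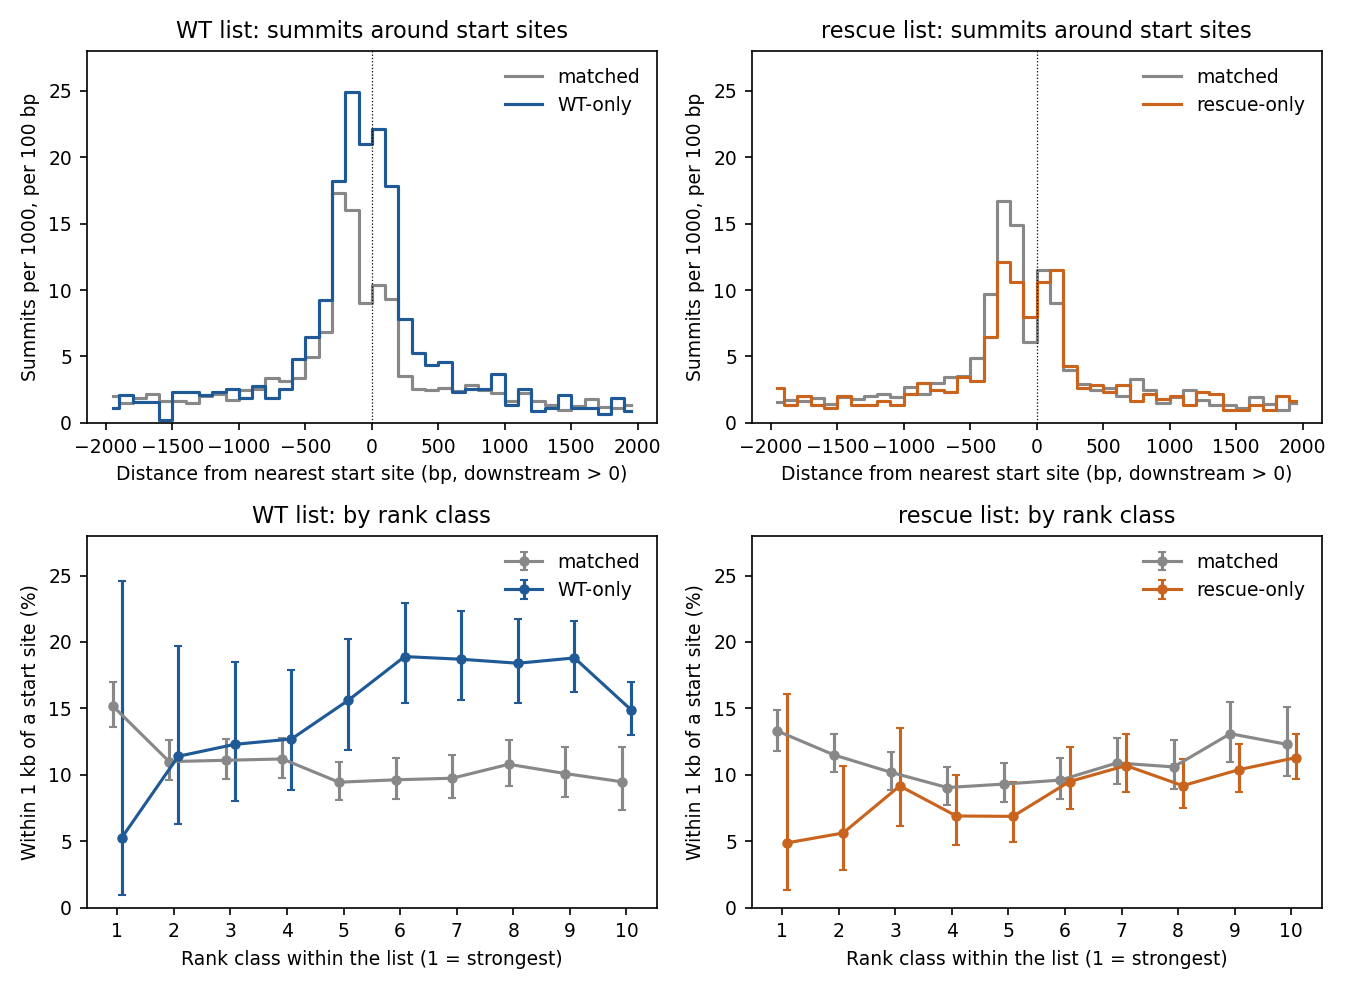
Upper panels: summits per 1000 in each 100 bp (y axis) by distance from the nearest start site (x axis, bp) for matched (grey), WT-only (blue) and rescue-only (orange) summits. Lower panels: share within 1 kb of a start site (y axis, %) by rank class (x axis, 1 = strongest) with 95% Wilson intervals, where WT-only summits of classes 5 to 10 stand at 14.9% to 18.9% against 9.45% to 10.8% for matched ones.

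Comparisons with the ORC2 deletion list share the WT or the rescue list with this one, so their values are given side by side only. WT summits without a deletion summit exceeded those with one by 7.44 points within 1 kb of a start (5.67 to 9.33). Rescue summits without a deletion summit exceeded those with one by 3.33 points (1.86 to 4.93), and deletion summits without a WT summit differed from those with one by 0.537 points (-0.198 to 1.28).

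Named here after their values were seen, the strongest WT-only summits within 1 kb of a start site other than NECTIN2 included GOSR1, a Golgi SNARE (13.5; 245 bp upstream of the start), GBF1, an activator of ARF GTPases (12.9; 654 bp upstream), and BECN1, the autophagy protein beclin 1 (11.6; 488 bp upstream). MAML2, a coactivator of Notch (11.1), SNX2, a sorting nexin (10.4), RPL11, a ribosomal protein (10.0), and STAM2, an endosomal sorting protein (9.67), also belonged to them. The nearest rescue summit was 123128 bp away at GOSR1 and 258689 bp at SNX2, but 967 bp at GBF1 and 530 bp at STAM2. Among rescue-only summits, CDC37, a cochaperone of HSP90, had 19.5 at 258 bp upstream of its start, with a WT summit 588 bp away. RGMB, a coreceptor of BMPs (15), KCNN3, a potassium channel (13.4), HNRNPUL1, an RNA-binding protein (12.2), and CASP8, the apoptosis protease (11.3), had such summits too. RAB8A, a GTPase of vesicle transport (10.8), and SLC37A4, the glucose 6-phosphate transporter (10.9), were 48607 and 64156 bp from a WT summit.

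The lists were also counted by gene, where any summit of each list in a gene or within 10 kb of it made the gene shared. This rule is looser than the match within 500 bp, so its shares cannot be set against those by summit. Of 19974 protein-coding genes, 10076 had a WT summit within 10 kb and 10383 a rescue summit, and 8804 had both, which is 87.4% of the former and 84.8% of the latter. WT summits alone were found at 1272 genes and rescue summits alone at 1579, and at least 2 summits in just 1 of the lists at 144 and 207 genes. LYRM4, a factor of iron-sulfur cluster assembly on chromosome 6, had 7 WT summits, the strongest at 10.0, and no rescue summit. PHEX, an endopeptidase of phosphate balance on X, ADAMTSL1, SORCS3, a sorting receptor, and FMNL2, a formin, had 3 WT summits each and no rescue summit. In the other direction, CTNNA2, an alpha-catenin of neurons, had 6 rescue summits, all below the median of the list, with the strongest at 5.19, and no WT summit. SCN11A, a sodium channel (strongest 11.3), LPA, apolipoprotein(a) (7.50), and HS6ST3, a heparan sulfate sulfotransferase (6.74), had 4 each. MET, the receptor of hepatocyte growth factor, had 3, the strongest at 14.3 (rank 2795) and 4833 bp outside the gene, with the nearest WT summit 6859 bp farther on. TCF3, an E protein transcription factor, CDH20, a cadherin, and MGAT5B had 3 rescue summits each and no WT summit within 10 kb. These genes were the extremes of the gene counts and were named after their values were seen.

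The gene lists were read against the unmatched shares of all summits, 23.8% in WT and 30.2% in rescue. A summit counted for a listed gene when it lay inside it or within 10 kb, so summits given for a gene can lie outside it. Among genes of origin licensing and firing, 5 of 23 WT summits and 6 of 24 rescue summits were unmatched. The rescue-only summits inside ORC2 described above are among these 6. MCM10 (29.9 in WT, 16.2 in rescue) and the helicase gene RECQL4 (26.9 and 16.7) had strong matched summits. MCM3, a helicase subunit, TICRR, which acts in origin firing, and GINS2 had WT-only summits of 7.41, 6.04 and 5.04, and MCM5 had a rescue-only summit of 6.18. Of cohesin, condensin and architectural genes, 10 of 36 WT and 5 of 32 rescue summits were unmatched. SMC3, a core cohesin subunit, was matched 8 bp apart (14.4 and 12.7). CTCFL, the paralog of CTCF (17.4 and 10.1), was matched 52 bp apart, and MAZ had a summit matched 68 bp apart (18.6 and 16.9) and a WT-only summit of 5.77. NCAPG, a condensin subunit, had a WT-only summit of 7.69, and PDS5A and PDS5B, which regulate cohesin, had rescue-only summits of 6.18 and 6.09.

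Among Polycomb, heterochromatin and DNA methylation genes 4 of 27 WT and 9 of 32 rescue summits were unmatched. EZH2 (17.3 and 21.9) and SUZ12 (14.3 and 7.12), both of PRC2, were matched, and CBX7 had a rescue-only summit of 9.43. Among DNA damage response genes 5 of 25 and 6 of 26 were unmatched, with NBN matched (36.9 and 28.9). A WT-only summit of 3.25 lay 154 bp outside ATM, the kinase of double-strand breaks. In the p53 pathway 4 of 23 and 8 of 27 were unmatched, with TP53I3 (18.7 and 14.1) and BAK1 (16.4 and 24.4) matched. APAF1, of the apoptosome, had a WT-only summit of 9.78 and a rescue-only summit of 6.78. Of cell cycle genes 10 of 28 and 10 of 29 were unmatched, among them a rescue-only summit 7632 bp outside CCND1, encoding cyclin D1 (9.19). The strongest match of the list lay 2766 bp outside CCND2 (31.6 and 19.6).

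In the signalling lists the shares stood on both sides of those of all summits. WNT genes had 6 of 36 WT and 12 of 42 rescue summits unmatched, with AXIN2, a negative regulator of the pathway, matched 4 bp apart (28.2 and 26.3). RAS, MAPK and PI3K genes had 7 of 39 and 14 of 46, with RPTOR, a subunit of mTORC1, matched (25.9 and 40.9) and NF1, a RAS inhibitor, holding a rescue-only summit of 10.7. TGF-beta and BMP genes had 10 of 28 and 13 of 31, with TGFBR2, a TGF-beta receptor, holding a WT-only summit of 8.69 and INHBA, an activin subunit, a rescue-only summit of 8.10. Genes of intestinal epithelium, the lineage of the line, had 8 of 37 unmatched in both lists. Their strongest sites were matched within 28 bp, and all lay outside the genes. They were 1701 bp from CEACAM5, 5118 bp from CDX1, an intestinal homeobox factor (83.8 and 82.6), and 6858 bp from CDH17, an intestinal cadherin (36.3 and 66.5). The site near CDX1 counted for the mesenchymal list as well.

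Genes of other cell types were matched in most cases as well. Mesenchymal genes had 3 of 23 WT and 6 of 26 rescue summits unmatched, with COL1A1, a collagen, matched (64.9 and 85.0), and haematopoietic genes 4 of 19 and 6 of 21. Neuronal genes had 25 of 64 and 21 of 60, or 39.1% and 35.0%, and their WT summits had a median rank share of 70.1, in the weak part of the list. STMN2 (26.9 and 31.2) and NRXN2 (25.8 and 28.9) were matched, while SYT1, a synaptic vesicle protein, had a WT-only summit of 7.19 and a rescue-only summit of 8.37. Olfactory receptor genes had 7 of 40 and 10 of 44, developmental transcription factor genes 11 of 41 and 10 of 39, HOX genes 3 of 20 and 3 of 19, and imprinted genes 4 of 15 and 6 of 17. At IGF2, an imprinted growth factor, the match was strong (41.0 and 42.7). The clustered protocadherins had 2 of 4 in each list.

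Zinc finger genes, the largest list, had 75 of 210 WT summits unmatched, 35.7%, and 46 of 180 rescue summits, 25.6%. Their matched share in WT was 64.3% with an interval from 57.6 to 70.5, below the 76.2% of all WT summits, and in rescue it was 74.4% (67.6 to 80.3). Of 72 WT-only summits with a start site distance, 26 were within 1 kb of a start, as at ZNF354A, and 11 of 39 rescue-only ones were. Other lists stood on both sides of this WT-only share, with 6 of 12 for ribosomal protein genes, 4 of 10 for cell cycle genes and 3 of 23 for neuronal genes. ZNF77 (39.8 and 45.4) and ZNF385C (36.7 and 35.0) were matched, and ZNF280D had a rescue-only summit of 15.5. Ribosomal protein genes had 12 of 58 and 26 of 73, with RPL26 matched 2 bp apart (64.2 and 47.3), RPL11 WT-only and RPL23A rescue-only (8.58). Histone genes had 4 of 11 WT summits unmatched and 0 of 7 rescue summits. Their WT-only summits included ones on chromosome 12 (5.17), in the part of chromosome 6 described next (5.05) and on chromosome 1 (4.43). Matched summits with WT values of 18.8 and 8.92 also lay in that part of chromosome 6. The intervals of most lists are wide, as few summits fall in each.

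**Figure D4:**
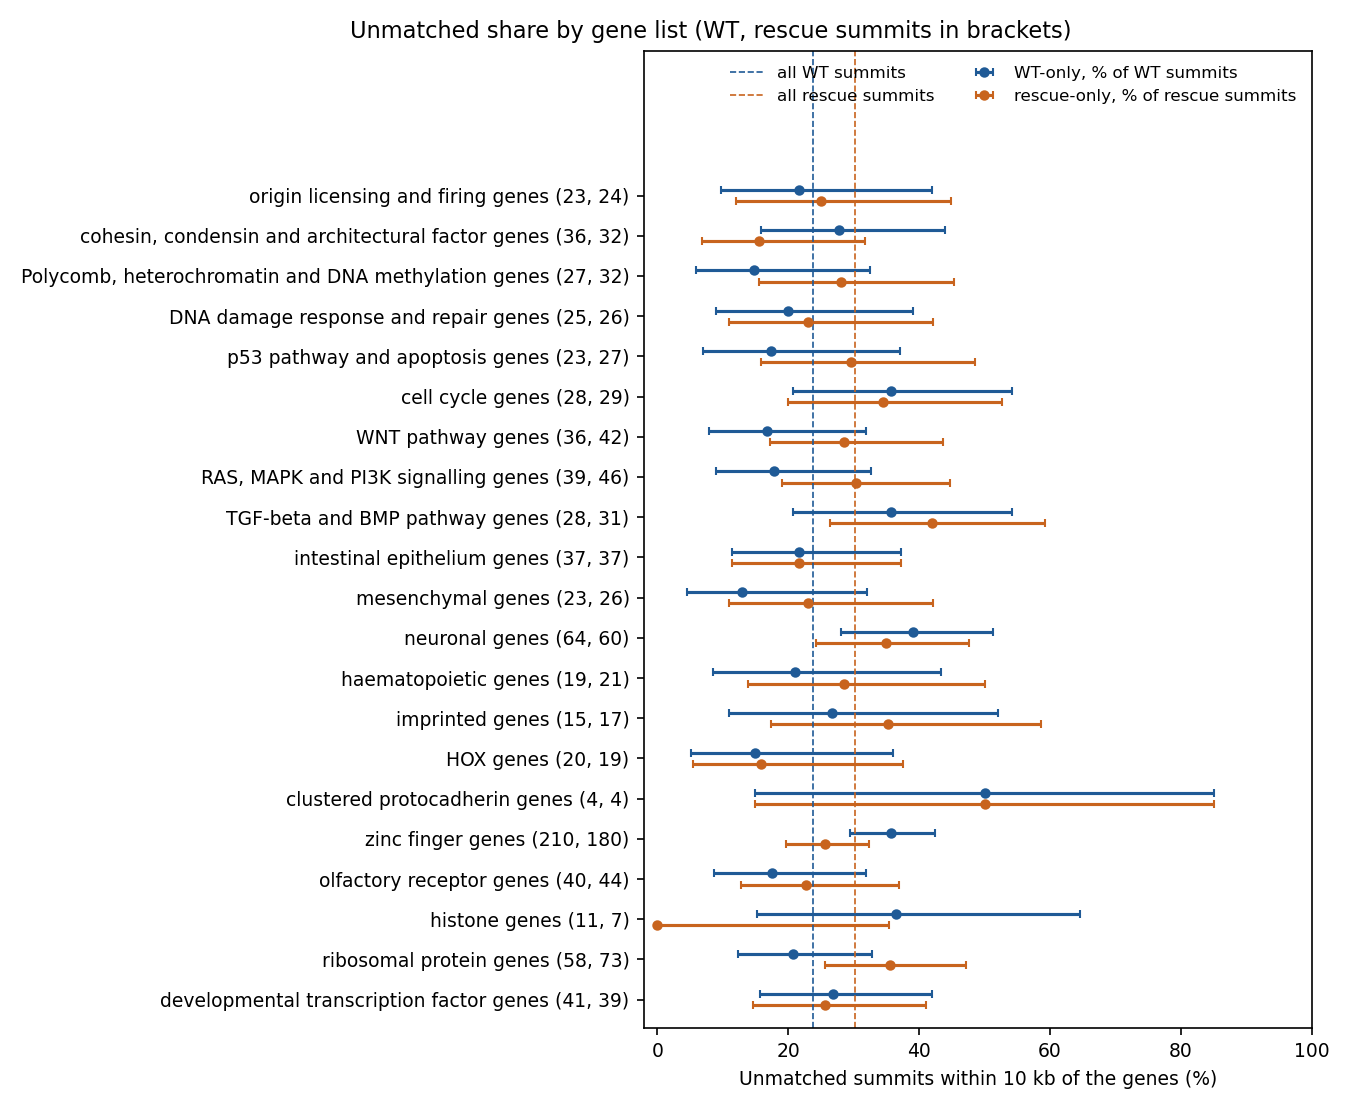
Unmatched share of the summits within 10 kb of each list's genes (x axis, %; y axis, the lists, with the numbers of WT and rescue summits), with 95% Wilson intervals, for WT (blue) and rescue (orange); dashed lines give the shares of all summits, 23.8% and 30.2%. Zinc finger genes stand at 35.7% in WT and 25.6% in rescue.

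By chromosome the rescue count relative to WT, after division by the ratio of the list lengths, ran from 0.916 on chromosome 6 (0.840 to 0.999) to 1.08 on chromosome 22 (0.933 to 1.25). The matched share of WT summits was lowest on X, 61.1% (56.3 to 65.6), and highest on chromosome 17, 82.8% (80.3 to 85.0). Of 293 bins of 10 Mb with at least 20 summits, 4 (1.37%) held at least 1.5 times more and 6 (2.05%) at least 1.5 times fewer rescue than WT summits relative to list length. All 10 were on chromosomes 6 and X, as 4 of 17 and 6 of 13 bins there, while the other 283 bins ran from 0.686 to 1.37. With lists of equal length 13 bins passed, 3 of them on other chromosomes, and of 526 bins of 5 Mb 24 passed, 8 of them on others.

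**Figure D5:**
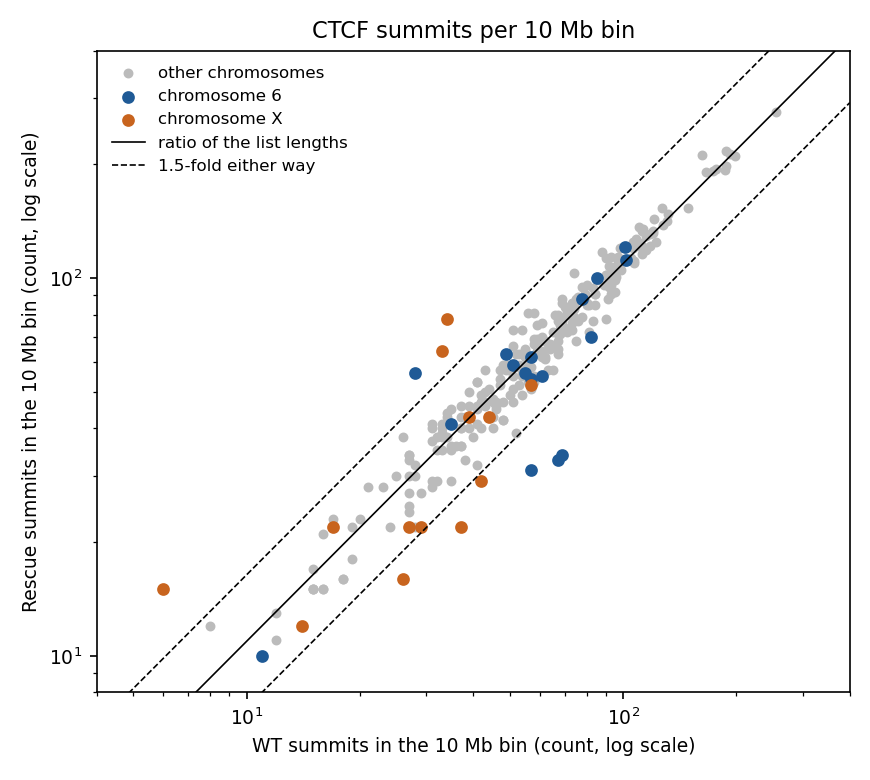
WT (x axis) and rescue (y axis) CTCF summits in each of 293 bins of 10 Mb, both on log scales, with chromosome 6 in blue, X in orange and other chromosomes in grey; the solid line is the ratio of the list lengths and the dashed lines 1.5-fold either way. The 10 bins beyond the dashed lines are on chromosomes 6 and X.

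On chromosome 6 the 3 first bins had relative ratios of 0.451 (67 WT and 33 rescue summits; 0.288 to 0.694), 0.451 (69 and 34; 0.290 to 0.689) and 0.498 (57 and 31; 0.311 to 0.784). In this stretch of 30 Mb, 114 of 193 WT summits (59.1%) were WT-only, while 19 of 98 rescue summits (19.4%) were rescue-only. The matched sites there ranked lower in rescue too. In its 79 pairs the median rank share was 24.9 in WT and 53.3 in rescue, and 66 pairs (83.5%) ranked lower in rescue, against 47.4% of all pairs. From 30 to 160 Mb the relative ratio was 0.990 (0.899 to 1.09) and 50.8% of pairs ranked lower in rescue. From 4 to 6 Mb, around LYRM4, there were 15 WT summits and 1 rescue summit. Beside IRF4, CDKAL1 and LYRM4, the strongest WT-only summits of the stretch were named for MYLK4 (13.9; 28914 bp outside), STMND1 (13.8; 36354 bp outside), TMEM14B (13.6), KIF13A, a kinesin (9.78), H2AC12, a histone (10.7; 14377 bp outside), and SOX4, a transcription factor (8.17; 4284 bp outside). The rescue-only summits there were weak, the strongest being those at BMP6 (6.22; 3113 bp outside), PRP4K, a kinase of splicing (5.08; 42648 bp outside), and ATXN1 (4.82).

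The other end of chromosome 6 differed in the opposite direction. From 160 to 170 Mb it held 28 WT and 56 rescue summits, a relative ratio of 1.83 (1.14 to 2.99), with rescue-only summits at CCR6 (23) and PDE10A, a phosphodiesterase (11.2). Of the 19 pairs from 160 Mb to the end of the chromosome 7 ranked lower in rescue, with median rank shares of 43.5 in WT and 40.0 in rescue.

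On X the counts changed sides along the chromosome. Up to 130 Mb there were 346 WT and 290 rescue summits, a relative ratio of 0.767 (0.654 to 0.899), and from 130 Mb to the end 73 and 157, a ratio of 1.97 (1.48 to 2.64). In the latter stretch 9 of 73 WT summits (12.3%) were WT-only and 92 of 157 rescue summits (58.6%) rescue-only. Of its 64 pairs 12 (18.8%) ranked lower in rescue, with median rank shares of 58.8 in WT and 36.0 in rescue. The bins were 2.10 from 130 to 140 Mb (34 and 78; 1.39 to 3.24), 2.29 from 140 to 150 Mb (6 and 15; 0.839 to 7.20) and 1.77 from 150 to 160 Mb (33 and 64; 1.15 to 2.79). Rescue-only summits there were named for RAB33A, a RAB GTPase (16.7; 7698 bp outside), MAP7D3, a microtubule-associated protein (15.4; 12271 bp outside), INTS6L, related to the integrator complex (13.6), IDS, iduronate 2-sulfatase (9.18; 6238 bp outside), PNCK, a calmodulin-dependent kinase (14.7; 1591 bp outside), CCNQ, a cyclin (14.3; 10782 bp outside), and ZNF185 (12.4). The bins lower in rescue were those from 20 to 30 Mb (26 and 16; 0.282 to 1.09), 50 to 60 Mb (37 and 22; 0.306 to 0.947) and 110 to 120 Mb (42 and 29; 0.380 to 1.04), with ratios of 0.563, 0.544 and 0.632. Their strongest WT-only summits were at PHEX (13.3), ALAS2, an enzyme of haem synthesis (6.08), and HTR2C, a serotonin receptor (9.36). The intervals of 3 X bins include 1, and the limits of the stretches were taken from these counts.

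The ORC2 deletion list, set against the same WT list, held 189 summits in the first 30 Mb of chromosome 6, 72 from 160 Mb to its end and 122 on X from 130 Mb on. Relative to list length the deletion ratios were 0.599 (0.488 to 0.736), 1.57 (1.00 to 2.53) and 1.02 (0.759 to 1.39). The rescue ratios of the same stretches were 0.465 (0.361 to 0.596), 1.86 (1.17 to 3.04) and 1.97 (1.48 to 2.64). The first stretch was thus below 1 in both lists. On X from 130 Mb on the rescue ratio was above 1 while the deletion interval included 1. On X up to 130 Mb both were below 1, at 0.863 (0.751 to 0.994) for deletion and 0.767 (0.654 to 0.899) for rescue. The difference between the deletion and rescue ratios was not tested.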

How the data were processed

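CUT&RUN reads were processed by the authors with FastQC 0.11.5, Bowtie2 2.2.9, SAMtools 1.12 and MACS2 on hg38, per the submitters' processing notes. How peaks were called, and with which control, is not given in the sources used here. In the deposited lists the authors give 1 base per summit and a value, taken as the −log10 of q, since the lowest ones lie just above that of 0.05. Each CTCF list was taken as the pool of its 2 libraries. The depth of the libraries is not given in the lists.

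Summits were matched by distance (500 bp), ranked by value within their list, and counted in bins, around genes of a RefSeq table of GRCh38.p14 and around its start sites (34961, on chromosomes 1 to 22 and X without 8). The table may be incomplete. No test across lists was possible with 1 list per genotype. The comparison, gene lists and rules were chosen with earlier results of these data known. A protein-coding gene holding the summit, or else the nearest end within 50 kb, named it. The text names the 15 strongest WT-only and rescue-only summits, the 5 pairs of highest mean rank, the 10 largest rank shifts each way, 12 panel genes, and for each list and class, or bin and list, up to 3 genes. Some of these are not reported here. The start site and motif measures, and genes said to be so, were added after seeing the data. Alternatives were other distances, one-to-one pairs, equal list lengths, values of at least 5, lists without summits near IgG, rank classes, other gene sets and other bins. Matching was tested on simulated data. The work used Python 3.11.15 with pandas 2.3.3, NumPy 2.4.6, matplotlib 3.10.9 and SciPy 1.17.1.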

Additional observations from a re-analysis of the deposited data

Results flagged for a closer look

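Signal outside the CTCF measurement was present in the rescue IgG list. Inside ORC2 it held 2 summits, where the WT IgG list held 0. Off chromosomes 1 to 22 and X it held 14 summits, 6 of them on the mitochondrial genome and 8 on other scaffolds, where the WT list held 0. The rescue IgG list is of 1 library and the WT list of 2, so these counts cannot be told apart from a difference in how the lists were made.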

How the results depend on the processing

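Of 48 values under alternatives, 33 stayed within the interval of the value reported, or within 1.5 times a count, and 15 moved. The mean over rank classes with equal weights is not among the 48 for start sites. Of the differences of shares 0 changed direction, while plain shares and counts of bins have no direction to change. Leaving out summits near IgG took away 14 WT and 18 rescue summits, so the values under that alternative could hardly move. The matched share of WT summits was 51.1% at 100 bp, 77.0% at 1000 bp and 73.5% at equal list lengths, and that of rescue summits 46.8%, 70.6% and 73.5%, and 65.6% with values of at least 5. At 100 bp 65.7% of WT-only and 65.7% of rescue-only summits lay below the median rank. The excess of WT-only summits at gene ends was 1.73 points at 100 bp. At start sites it was 2.22 points at 100 bp and 2.22 points with values of at least 5, where the rescue-only difference was -2.73 points. In 5 Mb bins 24 passed 1.5-fold, and 5 bins of 10 Mb passed 2-fold. No paired analysis was possible because the 2 libraries of a genotype share 1 summit list, and for the same reason no library could be left out. The cause of these shifts was not tested. Depth is unknown, so an unmatched summit was not called in the other list and is not shown to be unbound there. A genome sequence was not used here, so motif and GC content are given for promoter windows only.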
